A study of Mus musculus with 6 samples.

Results

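The genes described here encode 7 RNA-binding proteins that act on messenger RNA in the cytoplasm: the Musashi proteins Msi1 and Msi2, the zinc finger proteins Zfp36, Zfp36l1 and Zfp36l2, and the factors Elavl1 and Celf1. They were taken by gene symbol, as 7 of the 23565 genes in the table of counts, and each of the 7 was found there. The choice was made with earlier results of these data known. RNA was sequenced from sorted epithelial cells of the mouse small-intestinal crypt in 6 libraries, 3 from Hopx-CreER mice and 3 from Lgr5-CreER mice, with 3 mice per genotype in the description of the series. All mice carried the Rosa26LSL-tdTomato reporter, which gives red fluorescence after Cre has acted, and all received 1 mg of tamoxifen 16 hours before crypts were collected. Hopx-CreER cells were sorted on tdTomato alone. Lgr5-CreER cells carried the Lgr5eGFP-IRES-CreER allele and were sorted on tdTomato and on the eGFP that this allele makes. Genotype and sorting gate therefore differ together and cannot be told apart, and the age of the mice was not stated.

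ZFP36 proteins bind AU-rich elements in the 3′ untranslated region (UTR) of short-lived mRNAs and recruit the CCR4-NOT deadenylase, so that the bound mRNA loses its poly(A) tail and is degraded. Zfp36 (tristetraprolin) is itself an immediate early gene, transcribed within minutes of growth factor or stress signalling, and its own mRNA carries an AU-rich element. Elavl1 (HuR) binds similar AU-rich and U-rich sequences and is best known for stabilising mRNAs, while Celf1 binds GU-rich elements and acts on splicing, decay and translation. Musashi proteins bind short UAG-containing motifs and repress or activate translation, and Msi1 has long been used as a marker of the intestinal crypt base.

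The AU-rich elements of these genes are shown because they are the sequences through which ZFP36 proteins and Elavl1 act, and because Zfp36, Zfp36l1, Zfp36l2 and Elavl1 carry them in their own mRNAs. The 3′ UTR of the longest coding transcript of each gene (GENCODE M21, GRCm38) was searched on the transcript strand for the core TATTTAT and for the nonamer TTATTTATT, which contains the core. One 30-base window per gene is given 5′ to 3′ as DNA, with the nonamer, or the core where there is no nonamer, in capitals.
Zfp36, chr7:28376950-28376979 (minus strand): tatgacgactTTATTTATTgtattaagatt
Zfp36l1, chr12:80108166-80108195 (minus strand): aactgttggaTTATTTATTttagaaattct
Zfp36l2, chr17:84184913-84184942 (minus strand): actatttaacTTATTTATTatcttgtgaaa
Elavl1, chr8:4285787-4285816 (minus strand): gtcatgaaaaTTATTTATTtatttatttat
Celf1, chr2:91015315-91015344 (plus strand): ggggtggagaaTATTTATtacctaaattat
Msi1, chr5:115454032-115454061 (plus strand): ctggtcgcttTTATTTATTtttggattagc
Msi2, chr11:88341962-88341991 (minus strand): gaactttctctTATTTATgaaaagaaaaaa
The nonamer occurred in 5 of the 7 genes and the core in 7 of 7, beside 7.64% and 28.9% of the 11460 tested genes that have an annotated 3′ UTR. Each of the 3 ZFP36 genes had 1 nonamer and 3 cores. Elavl1 had 8 nonamers in 4218 bases of UTR. Overlapping matches were each counted, so a repeat such as the one shown for Elavl1 gives several. Msi2 and Celf1 had the core once each, in UTRs of 5310 and 6132 bases. The GU-rich motif TGTTTGT, which Celf1 can bind, was present in Msi1, Msi2, Elavl1 and Celf1 and in none of the ZFP36 genes, beside 28.8% of the tested genes. A match is a run of letters and does not show that a protein is bound.

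Library totals ranged from 10839306 to 14570555 counts. Levels are given in CPM, the count scaled to library size with TMM factors, on which a single count stood for 0.0669 to 0.0928 CPM and 3 counts for 0.201 to 0.278 CPM. The columns of the table name the gate but no replicate, so libraries are numbered by column and the numbers are names only. The columns of Lgr5-CreER libraries 2 and 3 carry the same number in their names, and their log2 CPM differed with an SD of 0.258, less than in any other pair within a group (0.325 to 0.587), and whether they share a source is not stated. Hopx-CreER library 3 stood apart, with SDs of 0.587 and 0.562 from the other Hopx-CreER libraries, and its deviation from them across genes followed GC content (Spearman rho 0.473) and transcript length (rho -0.371). Its column is the only one whose name carries a suffix after the gate, and the meaning of that suffix is not stated. Libraries are not tied to individual mice in the labels, and p-values therefore measure the spread between these libraries, which may be partly technical. The 7 epithelial markers summed to 15529 to 17038 CPM in Hopx-CreER and 10329 to 11096 CPM in Lgr5-CreER libraries, with Krt8, Krt18 and Krt19 called higher in Hopx-CreER cells. All 8 Lgr5 stem cell markers were lower in Hopx-CreER cells (summed level 2691 to 4537 CPM, against 9500 to 9966). Markers of other crypt cell types were higher there: the summed level was 14821 to 32266 CPM against 1647 to 3221 for 8 Paneth cell genes, 6853.5 to 10411 against 1989 to 2631 for 7 goblet cell genes, and 2852 to 6031 against 175 to 315 for 11 enteroendocrine genes. Tuft cell markers (249 to 1158 CPM against 126 to 191) and enterocyte markers (1254 to 2867 against 359 to 511) were higher as well. The part of cell composition in the results below was not tested, and in bulk RNA more cells of a type and more RNA per cell cannot be told apart.

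Zfp36 was the only one of the 7 genes called different between the groups, and it was higher in Hopx-CreER cells. Its level was 345.0, 276.6 and 413.8 CPM in Hopx-CreER libraries 1, 2 and 3, and 189.0, 71.3 and 79.8 CPM in Lgr5-CreER libraries 1, 2 and 3. Every Hopx-CreER library lay above every Lgr5-CreER library, and within the Lgr5-CreER group library 1 was well above the other two. The means were 345.1 ± 68.6 CPM and 113.3 ± 65.6 CPM (SD, n = 3 each). The difference was 3.04-fold, a log2 fold change of 1.60 ± 0.34 (SE), with an edgeR quasi-likelihood adjusted p of 0.0156 after Benjamini-Hochberg adjustment over 12439 genes. Across all genes tested, 9.45% were called higher in Hopx-CreER cells and 3.3% lower, so that 1 of 7 called higher and 0 of 7 called lower is close to what all genes show.

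The call for Zfp36 rested on the Lgr5-CreER libraries. Without Lgr5-CreER library 2 the log2 fold change was 1.36 (edgeR adjusted p = 0.0594), and without library 3 it was 1.40 (adjusted p = 0.0670). With the 2 columns of the same number merged into 1 library it was 1.38 (edgeR adjusted p = 0.0670). Without Lgr5-CreER library 1, the one with most Zfp36, it was 2.19 (edgeR adjusted p = 0.0025). The direction held in 16 of 16 alternatives and the call in 12. Immune cells also express Zfp36, and their part in this difference was not tested. The 7 T cell markers summed to 0.377 to 4.64 CPM in Hopx-CreER and 0.134 to 2.94 CPM in Lgr5-CreER libraries. The 7 myeloid markers summed to 3.47 to 7.05 and 2.07 to 3.68 CPM, with the macrophage marker Adgre1 at 0 in every library. The 5 B and plasma cell markers summed to 2.71 to 5.66 CPM in Hopx-CreER and 2.94 to 3.44 CPM in Lgr5-CreER libraries. Among them Ms4a1 was called lower in Hopx-CreER cells (log2 fold change -4.9, edgeR adjusted p = 0.00588), and Cd79b was not called (0.99, adjusted p = 0.129).

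**Figure D1:**
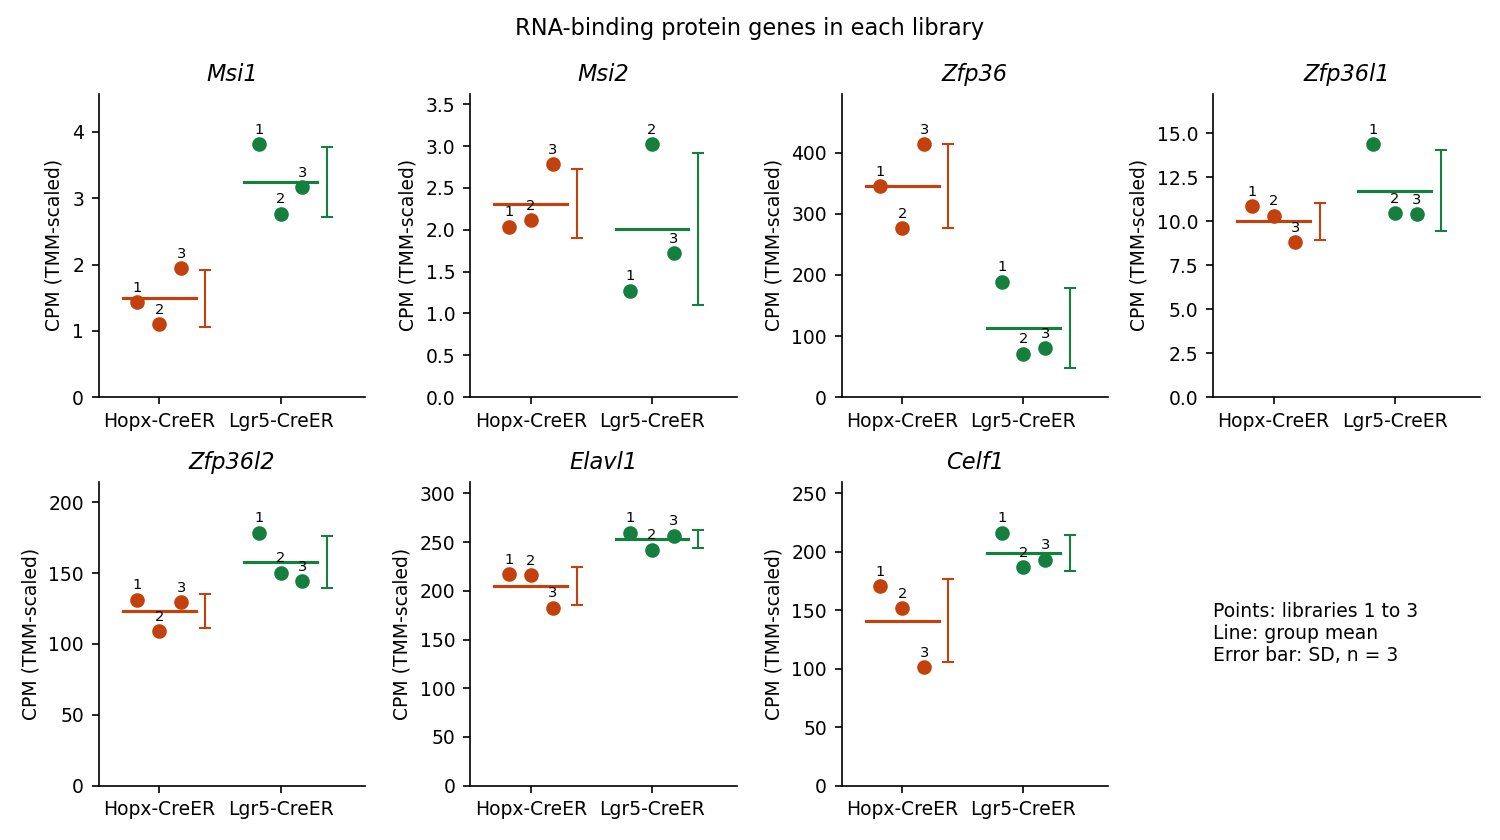
TMM-scaled CPM (y axis, linear and starting at 0 in each panel) of the 7 genes in the 3 Hopx-CreER and 3 Lgr5-CreER libraries; points are libraries labelled by number, lines are group means and bars are SDs (n = 3). Zfp36 lies between 276.6 and 413.8 CPM in Hopx-CreER and between 71.3 and 189.0 CPM in Lgr5-CreER libraries, while Msi1, Zfp36l2, Elavl1 and Celf1 lie lower in Hopx-CreER libraries without overlap and Msi2 and Zfp36l1 overlap.

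Zfp36l2, which restrains proliferation in several cell lineages, was present at 131.2, 109.1 and 129.4 CPM in Hopx-CreER libraries and 178.5, 150.2 and 144.2 CPM in Lgr5-CreER libraries. The groups did not overlap, with means of 123.2 ± 12.3 and 157.6 ± 18.3 CPM (SD, n = 3 each). The difference did not pass the test (log2 fold change -0.36 ± 0.13, edgeR adjusted p = 0.106). Zfp36l1, the third zinc finger protein, was present at 10.9, 10.3 and 8.81 CPM in Hopx-CreER libraries and at 14.4, 10.5 and 10.4 CPM in Lgr5-CreER libraries. These values overlapped, and the log2 fold change was -0.23 ± 0.24 (edgeR adjusted p = 0.577). Of the 2990 exonic bases of Zfp36l1, 1672 are also covered, on the opposite strand, by the non-coding gene Gm26669, which held 1 count in all. How counting treated shared bases was not stated, so the level of Zfp36l1 is uncertain to that extent.

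The 3 ZFP36 genes therefore stood in different proportions in the groups. Counts of Zfp36 were 2.63, 2.54 and 3.20 times those of Zfp36l2 in Hopx-CreER libraries, and 1.06, 0.474 and 0.553 times in Lgr5-CreER libraries. Per kilobase of exon, Zfp36 made up 70.9%, 69.9% and 75.1% of the ZFP36 family in Hopx-CreER libraries, and 49.6%, 30.8% and 34.2% in Lgr5-CreER libraries. Zfp36l2 made up 23.1% to 27.1% of the family in Hopx-CreER and 46.0% to 63.9% in Lgr5-CreER libraries. Zfp36l2 was thus the most abundant family member in Lgr5-CreER libraries 2 and 3 but not in library 1, where Zfp36 was slightly ahead. The shares of Zfp36 in the groups did not overlap, and neither did those of Zfp36l1, the smallest member, which were 2.59%, 3.03% and 1.86% in Hopx-CreER and 4.38%, 5.25% and 5.16% in Lgr5-CreER libraries. Shares add up to the whole, so a larger share of Zfp36 leaves less for the others. The CPM of Zfp36l1 itself overlapped between the groups. Because of the bases that Zfp36l1 shares with Gm26669, the size of its share and its place as the smallest are uncertain. The summed level of the 3 genes was 487.1, 396.0 and 552.1 CPM in Hopx-CreER and 381.9, 231.9 and 234.3 CPM in Lgr5-CreER libraries. These shares are ratios within a library and do not depend on its scaling, and they were not tested.

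**Figure D2:**
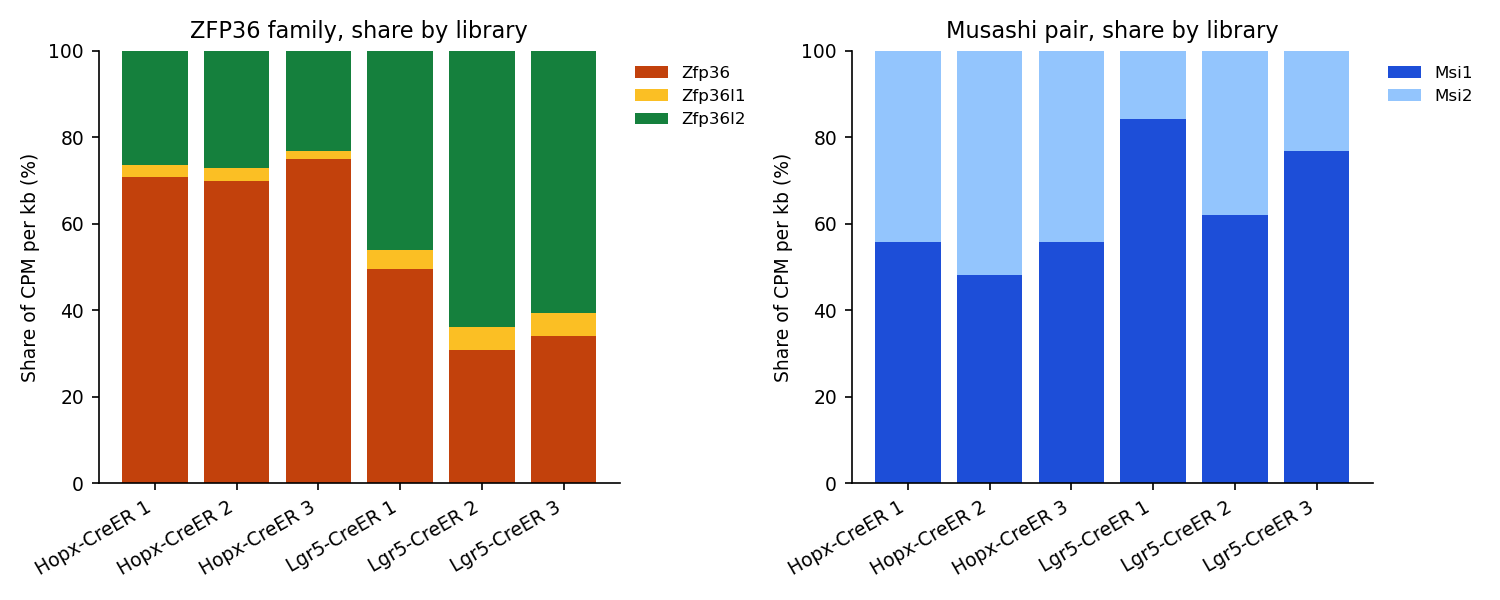
Share of the summed CPM per kilobase of exon (y axis, percent) taken by each ZFP36 gene (left) and each Musashi gene (right) in every library. Zfp36 holds 69.9% to 75.1% of the ZFP36 family in Hopx-CreER and 30.8% to 49.6% in Lgr5-CreER libraries, and Msi1 holds 48.3% to 55.8% of the Musashi pair in Hopx-CreER and 62.1% to 84.3% in Lgr5-CreER libraries.

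Elavl1 was present at 217.0, 216.0 and 182.8 CPM in Hopx-CreER libraries and at 259.7, 242.2 and 256.6 CPM in Lgr5-CreER libraries. The groups did not overlap, but the means of 205.3 ± 19.5 and 252.8 ± 9.34 CPM (SD, n = 3 each) were close. The log2 fold change of -0.30 ± 0.11 did not pass the test (edgeR adjusted p = 0.105). Elavl1 shares 204 exonic bases with Ccl25 on the opposite strand, a chemokine gene that was higher in Hopx-CreER cells (log2 fold change 0.57 ± 0.15, edgeR adjusted p = 0.0333). The call for Ccl25 was lost on leaving out any 1 Lgr5-CreER library (edgeR adjusted p from 0.0944 to 0.131). Where counting takes no account of strand, reads from the shared bases cannot be told apart.

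Celf1 was present at 170.6, 151.9 and 101.2 CPM in Hopx-CreER libraries and 216.5, 187.0 and 193.4 CPM in Lgr5-CreER libraries. The groups did not overlap, and Hopx-CreER library 3, the library that stands apart in GC content and transcript length, was the lowest by a clear margin, 0.67 below the mean of the other Hopx-CreER libraries on the log2 scale. The means were 141.3 ± 35.9 and 198.9 ± 15.5 CPM (SD, n = 3 each), and the log2 fold change of -0.49 ± 0.18 did not pass the test (edgeR adjusted p = 0.109). Its GC content is 46.6%, and offsets for GC content gave a log2 fold change of -0.47 that passed (edgeR adjusted p = 0.0427). It also passed on leaving out Hopx-CreER library 1 (-0.64, edgeR adjusted p = 0.0472) and without a count filter (-0.50, edgeR adjusted p = 0.0424). Without Hopx-CreER library 3 the log2 fold change was smaller, -0.32, and did not pass (edgeR adjusted p = 0.0933).

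The Musashi genes were the least abundant of the 7. Msi1 was present at 1.43, 1.10 and 1.95 CPM in Hopx-CreER libraries, on 19, 13 and 21 counts, and at 3.82, 2.76 and 3.17 CPM in Lgr5-CreER libraries, on 57, 32 and 46 counts. Every Lgr5-CreER library lay above every Hopx-CreER library. The means were 1.49 ± 0.428 and 3.25 ± 0.531 CPM (SD, n = 3 each), a log2 fold change of -1.12 ± 0.38 that did not pass the test (edgeR adjusted p = 0.0880). With offsets for GC content, the log2 fold change of Msi1 was -1.40 and passed (edgeR adjusted p = 0.0264).

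Msi2, its close relative, was present at 2.03, 2.11 and 2.78 CPM in Hopx-CreER and 1.27, 3.02 and 1.72 CPM in Lgr5-CreER libraries. The lowest and the highest of these values were both in the Lgr5-CreER group. The log2 fold change was 0.21 ± 0.43 (edgeR adjusted p = 0.781) and its sign turned when Lgr5-CreER library 1 was left out (-0.035). Counts of Msi1 were 0.704, 0.52 and 0.70 times those of Msi2 in Hopx-CreER libraries, and 3.0, 0.914 and 1.84 times in Lgr5-CreER libraries. The ratios did not overlap between the groups, on no more than 57 counts of either gene in any library.

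Of the 7 genes, 5 had negative log2 fold changes, and the median over the 7 was -0.30 beside -0.033 for all genes tested. Msi1, Zfp36l2, Elavl1 and Celf1 lay lower without overlap between groups, 4 of 7 beside 16.2% of all genes, and Zfp36 lay higher without overlap, 1 of 7 beside 18.8%. The same 4 genes had an unadjusted edgeR p under 0.05, beside 11.1% of all genes that did so in the lower direction, and edgeR, DESeq2 and limma-voom each called 0 of them at an adjusted p under 0.05. Scaling moved these calls. With library totals alone, which shift the median of all genes to -0.147, Zfp36l2 (log2 fold change -0.47) and Elavl1 (-0.41) were called lower with edgeR adjusted p of 0.0352 and 0.0344, beside 5.86% of all genes. With GC offsets, which shift it to -0.099, Msi1, Zfp36l2 and Celf1 were called lower, beside 8.35% of all genes. No alternative turned the sign of Zfp36, Zfp36l1, Zfp36l2, Elavl1, Celf1 or Msi1.

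**Figure D3:**
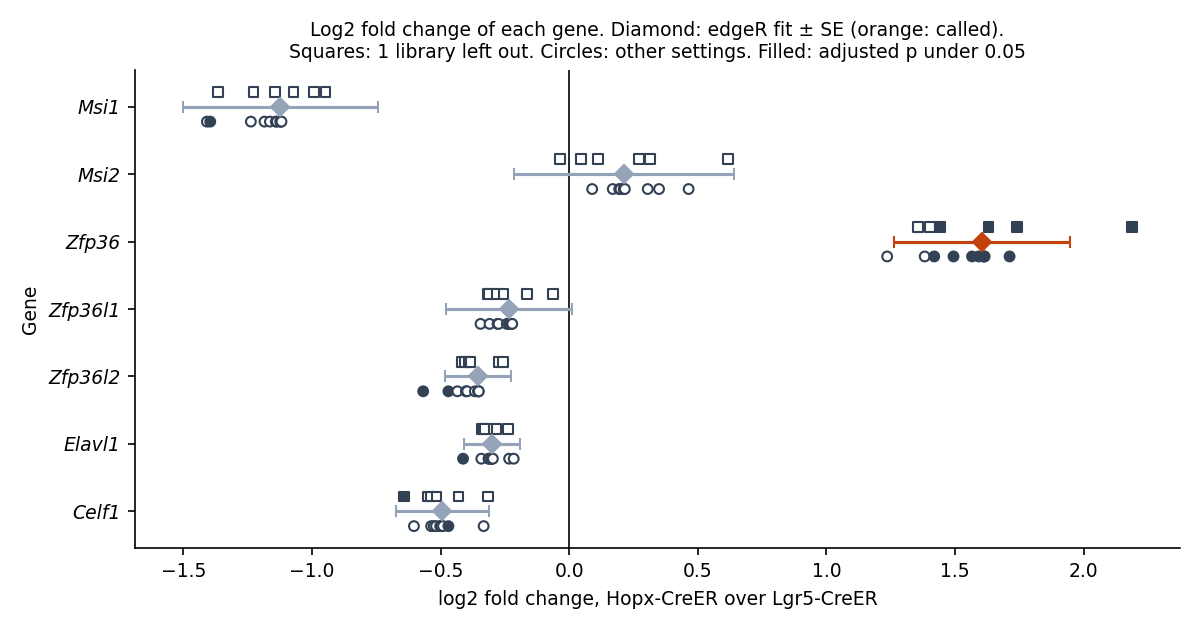
Log2 fold change of each gene (x axis, positive where higher in Hopx-CreER cells), from the edgeR fit (diamonds, with SE), with 1 library left out (squares) and under the other settings (circles); filled symbols have an adjusted p under 0.05. Zfp36 stays between 1.24 and 2.19 in all settings, Msi2 crosses 0, and the other 5 genes stay below 0 and are mostly not called.

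Compared per kilobase of exon, the 7 genes covered a wide range of levels. In Hopx-CreER libraries the mean was highest for Zfp36 (99.5 ± 19.8 CPM per kilobase, SD, n = 3), followed by Zfp36l2 (34.9 ± 3.48), Elavl1 (19.8 ± 1.88), Celf1 (16.7 ± 4.25), Zfp36l1 (3.34 ± 0.353), Msi1 (0.257 ± 0.0738) and Msi2 (0.222 ± 0.0395). Of the neighbours in this order, the libraries of Elavl1 and Celf1 overlapped, and so did those of Msi1 and Msi2. In Lgr5-CreER libraries the order was Zfp36l2 (44.7 ± 5.19 CPM per kilobase), Zfp36 (32.7 ± 18.9), Elavl1 (24.4 ± 0.902), Celf1 (23.6 ± 1.84), Zfp36l1 (3.93 ± 0.767), Msi1 (0.560 ± 0.0915) and Msi2 (0.193 ± 0.0874). There, each of the first 4 overlapped with its neighbour, while Zfp36l1, Msi1 and Msi2 were each separate from the gene above. In both groups the place of Zfp36l1 is uncertain because of the bases it shares with Gm26669. The position of Elavl1 depends on the length used: per kilobase of its longest transcript it moved above Zfp36l2 in Hopx-CreER (35.8 against 34.9) and above Zfp36 in Lgr5-CreER libraries (44.0 against 40.6).

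The pattern of each gene over the 6 libraries was compared with that of the 8160 other genes whose mean over all libraries reached 10 CPM, by the mean absolute difference of log2 CPM centred on each gene's own mean. The gene nearest to Zfp36 was Egr1 (difference 0.076), an immediate early transcription factor, and the next was Fos (0.097), a subunit of AP-1. Egr1 was present at 649.1, 472.8 and 690.5 CPM in Hopx-CreER and 308.4, 135.0 and 135.0 CPM in Lgr5-CreER libraries, so its order of libraries is nearly that of Zfp36. The nearest to Msi1 were Tmem132a (0.045) and Fzd2 (0.092), a Wnt receptor, and to Msi2 Gm13456 (0.133) and Polg2 (0.137). The nearest to Zfp36l2 were the kinase Abl1 (0.035) and Pcnx (0.038), and to Zfp36l1 Wasf2 (0.029) and Mlxip (0.032). Elavl1 lay nearest to the translation factor Eif4b (0.020) and to Hdgf (0.031), and Celf1 to Spen (0.042) and Sorl1 (0.045).

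Immediate early genes form the class to which Zfp36 belongs, and 13 of them were called higher in Hopx-CreER cells. Of 27 listed, 25 were tested, of which 1 (Myc) was called lower and 11 were not called, with a median log2 fold change of 1.17. Zfp36 itself is not in the list. Btg2, an antiproliferative adaptor of the deadenylase, rose by 1.25 on the log2 scale (edgeR adjusted p = 0.000512). Its level was 415.8, 408.3 and 423.4 CPM in Hopx-CreER and 198.2, 168.9 and 158.8 CPM in Lgr5-CreER libraries. Dusp2 (log2 fold change 4.37, edgeR adjusted p = 0.000535), Klf2 (1.97, adjusted p = 0.00366) and Junb (1.83, adjusted p = 0.0047) were called higher as well. The number called higher was 8 without Lgr5-CreER library 2 or without library 3, 16 without Lgr5-CreER library 1 and 8 with the same-number columns merged. Over all genes, 9.45% were called higher.

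The median of this list ordered the libraries much as Zfp36 did, though single genes differed. On a log2 scale set to 0 at the Lgr5-CreER mean, Zfp36 was at 1.75, 1.43 and 2.01 in Hopx-CreER libraries and at 0.88, -0.52 and -0.36 in Lgr5-CreER libraries. The median of the 25 tested immediate early genes was at 1.17, 0.96 and 1.48, and at 0.51, -0.25 and -0.26, in the same libraries. Lgr5-CreER library 1 thus stood between the Hopx-CreER libraries and the other Lgr5-CreER libraries for Zfp36 and for this median. Not every gene of the list did so: in that library Dusp2 was at -0.41 and Klf4 at -0.30, and Ccn1, at 1.11, lay above every Hopx-CreER library. By comparison, Zfp36l2 was at 0.19, -0.06 and -0.12 in the Lgr5-CreER libraries.

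**Figure D4:**
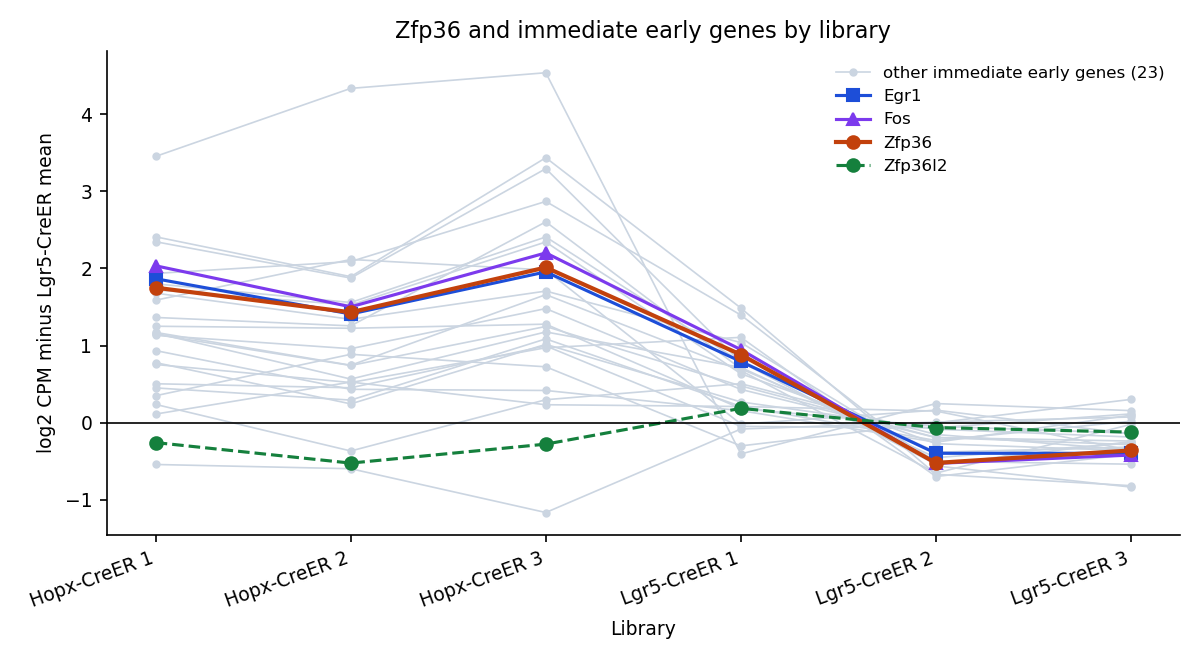
Log2 CPM minus the Lgr5-CreER mean (y axis) in the 6 libraries (x axis) for Zfp36, Egr1, Fos, Zfp36l2 and the other 23 tested immediate early genes (grey); lines join the values of a gene and stand for no order of libraries. Zfp36, Egr1 and Fos run close together, from 1.41 to 2.20 in Hopx-CreER libraries and near 0.9 in Lgr5-CreER library 1, and below 0 in Lgr5-CreER libraries 2 and 3.

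The promoter of Zfp36 is given because serum response elements are known to switch on Egr1 and Fos, its nearest genes in pattern. It is the RefSeq window from 250 bases before to 50 bases after the annotated start (GRCm38.p6, chr7:28379179-28379478, minus strand), with the motifs found by search of both strands in capitals, an Egr-type GCGNGGGCG match first and a serum response element (CArG box) second.
Zfp36 promoter: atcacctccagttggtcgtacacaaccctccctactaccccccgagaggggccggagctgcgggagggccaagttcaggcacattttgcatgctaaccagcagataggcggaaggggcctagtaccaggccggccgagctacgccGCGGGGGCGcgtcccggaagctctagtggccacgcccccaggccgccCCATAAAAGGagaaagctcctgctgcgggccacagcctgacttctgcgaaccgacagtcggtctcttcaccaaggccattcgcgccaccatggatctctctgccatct
The CArG box was found in 1.81% and GCGNGGGCG in 6.27% of the 27025 genes with a RefSeq promoter window. Promoter windows were matched for 5 of the 7 genes, and of these only Zfp36 held either motif. The cyclic AMP response element TGACGTCA was found in Msi2 (2.03% of all genes) and the AP-1 type motif TGANTCA in Zfp36l1 (8.97%). An NF-kB type motif, found in 1.89% of all genes, was in none of the 5, and Elavl1 and Celf1 held none of the 5 motifs searched. Of 21 immediate early genes with a window, 9 held GCGNGGGCG and 1, Egr2, held a CArG box. Egr1 and Fos were not among these, for want of either a match or a window. Elements outside a 300-base window would not be seen, and a match of letters does not show that a protein is bound. Whether these motifs have a part in the difference of Zfp36 between groups was not tested.

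Upstream of the proteins lie the kinases, phosphatases and 14-3-3 proteins that act on ZFP36 proteins. Of 17 tested genes on this list, 2 were called higher in Hopx-CreER cells, beside 9.45% of all genes, and the median log2 fold change was 0.09. EdgeR, DESeq2 and limma-voom each called 0 of the 17 lower. At an unadjusted edgeR p under 0.05, 1 was lower, beside 11.1% of all genes. Dusp1, the phosphatase that switches off p38 and JNK kinases, was at 359.3, 303.8 and 547.8 CPM in Hopx-CreER and 178.0, 70.7 and 86.9 CPM in Lgr5-CreER libraries. It rose by 1.85 ± 0.34 on the log2 scale (edgeR adjusted p = 0.00867) and was called in 16 of 16 alternatives. Map2k3, the kinase that activates p38, rose by 0.53 ± 0.12 (edgeR adjusted p = 0.0169). That call was lost on leaving out Lgr5-CreER library 2 (edgeR adjusted p = 0.0869) or 3 (edgeR adjusted p = 0.0775) and with the same-number columns merged (edgeR adjusted p = 0.0768). With GC offsets the log2 fold change of Map2k3 was 0.32 (edgeR adjusted p = 0.0526), and the median of the list was -0.085. The 14-3-3 gene Ywhag was at -0.28 ± 0.10 and Ywhae at -0.34 ± 0.16, and neither passed the test.

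Downstream, the deadenylation and decapping machinery that ZFP36 proteins recruit had 1 of 33 tested genes called higher, beside 9.45% of all genes. Its median log2 fold change was -0.24, or -0.08 without Hopx-CreER library 3. EdgeR called 0 lower, DESeq2 3 and limma-voom 1. At an unadjusted edgeR p under 0.05, 5 were lower, beside 11.1% of all genes. Btg2, a deadenylase adaptor called higher above, was placed on the immediate early list and not on this one. The gene of this list called higher was Tob1, an antiproliferative adaptor that links RNA-binding proteins to CCR4-NOT. Its level was 156.6, 115.5 and 128.0 CPM in Hopx-CreER and 78.6, 55.9 and 69.9 CPM in Lgr5-CreER libraries. It rose by 0.97 ± 0.16 on the log2 scale (edgeR adjusted p = 0.0057) and was called in 16 of 16 alternatives. Cnot1, the scaffold of the complex, was at 56.3, 49.7 and 20.1 CPM in Hopx-CreER and 84.6, 96.2 and 82.9 CPM in Lgr5-CreER libraries. Its groups did not overlap, and its log2 fold change of -1.06 ± 0.31 just missed the threshold (edgeR adjusted p = 0.0550), which it passed in 10 of 16 alternatives. Without Hopx-CreER library 3, where it was lowest, the log2 fold change was -0.74 (edgeR adjusted p = 0.00395). The poly(A)-binding protein gene Pabpc1 (log2 fold change -0.70 ± 0.21, edgeR adjusted p = 0.0647) and the decapping factor gene Patl1 (-0.60 ± 0.21, adjusted p = 0.0909) did not pass. Of 13 tested RNA exosome genes, which degrade deadenylated mRNA from the 3′ end, edgeR, DESeq2 and limma-voom each called 0. Their median log2 fold change was -0.15. Exosc2 and Exosc8 were lower at an unadjusted edgeR p under 0.05, 2 of 13 beside 11.1% of all genes.

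Of the 9 listed paralogs of these genes, 7 were found among the counted genes, and Zfp36l3 and Elavl3 were not. Only Celf3 had enough counts to be tested, and it was higher in Hopx-CreER cells. Celf3, a CELF protein best known from the nervous system, was at 4.52, 6.17 and 4.64 CPM in Hopx-CreER and 0.469, 0.605 and 1.58 CPM in Lgr5-CreER libraries. The groups did not overlap, and the log2 fold change was 2.50 ± 0.49 (edgeR adjusted p = 0.0105). Without Lgr5-CreER library 2 it was 2.31 (edgeR adjusted p = 0.0554), and without Lgr5-CreER library 3, which held 23 of the 37 Lgr5-CreER counts, it was 3.24 (edgeR adjusted p = 0.00965). Enteroendocrine markers moved in the same direction (9 of 11 called higher, summed levels above), and their part in this difference was not tested. Celf2, Celf5 and Celf6 held 17, 8 and 19 counts over the Hopx-CreER libraries and 3, 1 and 3 over the Lgr5-CreER libraries. Elavl2, Elavl4 and Celf4 were at 0 in every library.

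Among 37 tested genes of other mRNA-binding regulators, edgeR called 1 lower (DESeq2 4, limma-voom 1) and all 3 tools called 0 higher. Over all genes, edgeR called 3.3% lower and 9.45% higher. The median log2 fold change of the list was -0.36. Without Hopx-CreER library 3 the median was nearer to 0 (-0.21, with 1 called higher and 1 lower), and without Hopx-CreER library 2 farther from it (-0.52). The gene called was G3bp1, a core protein of stress granules, at 580.2, 555.2 and 496.2 CPM in Hopx-CreER and 716.0, 675.8 and 707.4 CPM in Lgr5-CreER libraries. It fell by 0.36 ± 0.10 on the log2 scale (edgeR adjusted p = 0.0489), and the call was lost when any 1 library was left out. The next by p were Rbm38 (log2 fold change -0.70 ± 0.21, edgeR adjusted p = 0.0590), Hnrnpd, which encodes the AU-rich element binding protein AUF1 (-0.49, adjusted p = 0.0883), and Rbms1 (-1.77, adjusted p = 0.0927). Of the 37 genes, 32 had negative log2 fold changes, and the median over all genes tested was -0.033. At an unadjusted edgeR p under 0.05, 9 of the 37 were lower and 0 higher, beside 11.1% of all genes lower.

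Reported target mRNAs of ZFP36 proteins went in both directions. Of 26 listed, 17 were tested, and 3 were called higher and 2 lower, beside 9.45% and 3.3% of all genes. The median log2 fold change was 0.17, or 0.31 without Lgr5-CreER library 1 and 0.45 without library 3. Those called higher were Dusp1, Plk3 and Fos, each with the nonamer in its 3′ UTR, shown here beside the sites above.
Fos, chr12:85477103-85477132 (plus strand): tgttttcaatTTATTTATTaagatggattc
Dusp1, chr17:26506158-26506187 (minus strand): gagctggtccTTATTTATTtaacacccccc
Plk3, chr4:117128717-117128746 (minus strand): tggaccacttTTATTTATTaacagacattt
Fos was at 1557.3, 1077.2 and 1749.0 CPM in Hopx-CreER and 733.3, 263.4 and 283.9 CPM in Lgr5-CreER libraries, and its log2 fold change was 1.77 ± 0.37 (edgeR adjusted p = 0.0150). Plk3, a stress-activated kinase, was at 65.8, 26.5 and 133.8 CPM in Hopx-CreER and 16.7, 14.8 and 14.2 CPM in Lgr5-CreER libraries. It rose by 2.30 ± 0.47 on the log2 scale (edgeR adjusted p = 0.0137), with a wide spread among Hopx-CreER libraries. Fos and Plk3 lost their calls on leaving out Lgr5-CreER library 2 (edgeR adjusted p = 0.0594 and 0.0649) or library 3 (edgeR adjusted p = 0.0638 and 0.0635), as Zfp36 did, and Plk3 also with limma-voom (adjusted p = 0.0593). Merging the same-number columns ended both calls (edgeR adjusted p = 0.0659 for Fos and 0.0670 for Plk3). Without Hopx-CreER library 3 the log2 fold change of Plk3 was 1.59 (edgeR adjusted p = 0.00588). Dusp1 and Fos are also on the immediate early list.

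The targets called lower were Myc and Notch1. Myc, the growth-promoting transcription factor, was at 210.0, 202.2 and 136.4 CPM in Hopx-CreER and 289.0, 307.7 and 322.1 CPM in Lgr5-CreER libraries, and fell by 0.74 ± 0.16 on the log2 scale (edgeR adjusted p = 0.0167). Leaving out Lgr5-CreER library 2 (edgeR adjusted p = 0.0639) or library 3 (edgeR adjusted p = 0.0684), or merging them (edgeR adjusted p = 0.0670), ended its call. The 442-base 3′ UTR of Myc used here held neither the nonamer nor the core. Notch1, a receptor that keeps crypt progenitors from becoming secretory cells, was at 29.7, 36.9 and 37.2 CPM in Hopx-CreER and 119.2, 69.1 and 54.9 CPM in Lgr5-CreER libraries. Its log2 fold change was -1.23 ± 0.27 (edgeR adjusted p = 0.0167), and without Hopx-CreER library 1 the edgeR adjusted p was 0.0539. It is named for being called, after its values were seen and outside the rule for named genes.

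Across all genes, carrying the nonamer went with no excess of calls. Of 875 tested genes with the nonamer, 6.86% were called higher in Hopx-CreER cells and 3.09% lower, beside 10.3% and 3.43% of the 10585 genes without it. Genes with the nonamer have longer 3′ UTRs (median 2378 bases, against 1023), and fold changes in these data went down with transcript length (Spearman rho -0.305 across tested genes). Among genes with a UTR of 500 to 2000 bases, 10.9% of 320 genes with the nonamer and 10.1% of 4842 without it were called higher, and 2.81% and 3.86% were called lower.

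Reported Musashi targets included calls in opposite directions. Of 11 tested, 1 was called higher and 1 lower (9.09% each), beside 9.45% higher and 3.3% lower over all genes. The median log2 fold change was -0.19, or -0.12 without Hopx-CreER library 3. Cdkn1a, which encodes the cell cycle inhibitor p21, was at 100.5, 171.5 and 155.8 CPM in Hopx-CreER and 20.8, 22.2 and 25.3 CPM in Lgr5-CreER libraries. It rose by 2.65 ± 0.21 on the log2 scale (edgeR adjusted p = 0.000374). Lrig1, an inhibitor of ErbB receptors and a marker of crypt stem cells, was at 301.3, 235.7 and 238.0 CPM in Hopx-CreER and 462.3, 407.8 and 376.9 CPM in Lgr5-CreER libraries. It fell by 0.69 ± 0.13 (edgeR adjusted p = 0.0101). Both were called in 16 of 16 alternatives. Numb, the Notch inhibitor that is the best known Musashi target, was at 87.5, 70.8 and 45.3 CPM in Hopx-CreER and 59.2, 63.5 and 66.1 CPM in Lgr5-CreER libraries. Its groups overlapped, with a log2 fold change of 0.11 ± 0.21 (edgeR adjusted p = 0.771). Musashi proteins act largely on translation, which RNA counts do not measure.

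Of 18 tested genes reported as Elavl1 or Celf1 targets in epithelium, edgeR, DESeq2 and limma-voom each called 0 higher and 1 lower (Myc with edgeR), with a median log2 fold change of -0.22. Without Hopx-CreER library 3 the median was -0.12, with 2 called lower. At an unadjusted edgeR p under 0.05, 2 of the 18 were higher (Jund and Map2k1) and 3 lower, beside 11.1% of all genes lower. Cdk4, a cell cycle kinase gene on this list and on that of Musashi targets, had a log2 fold change of -0.32 ± 0.11 (edgeR adjusted p = 0.0905). Over the 9 lists, 22 of 159 tested genes were called, 18 higher and 4 lower, beside 9.45% higher and 3.3% lower over all genes, and 13 of the 18 were on the immediate early list.

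**Figure D5:**
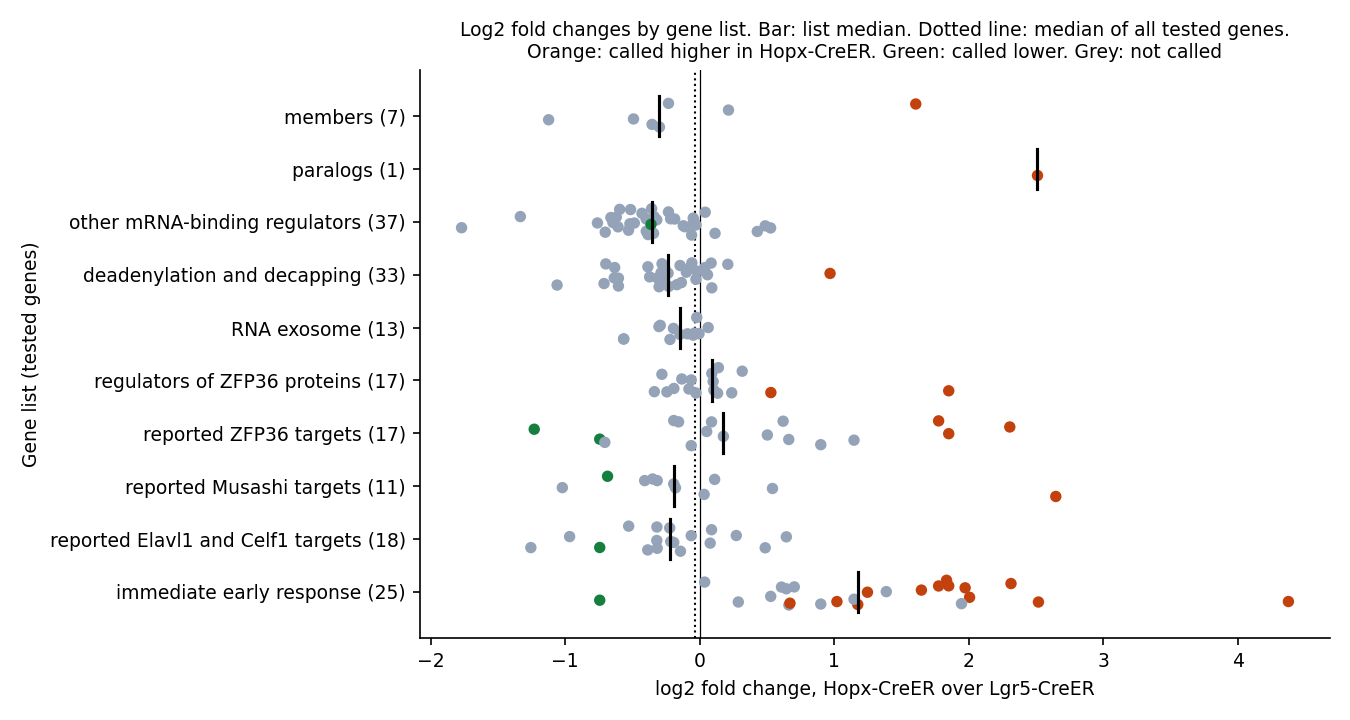
Log2 fold change (x axis, positive where higher in Hopx-CreER cells) of every tested gene in the 7 members and in each of the 9 lists (y axis, number tested in brackets); points are genes, orange called higher, green called lower and grey not called, black bars are list medians and the dotted line is the median of all tested genes (-0.033). Immediate early genes lie mostly to the right (median 1.17), while other mRNA-binding regulators and decay factors have medians of -0.36 and -0.24, which are nearer to 0 without Hopx-CreER library 3 (-0.21 and -0.08).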

How the data were processed

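RNA was measured in 6 libraries of cells sorted into TRIzol LS, cleaned on RNeasy MinElute columns, amplified with SMART-Seq v4 and tagmented with Nextera XT, per the labels' protocols. The authors deposited whole-number counts per mouse Ensembl gene. Names in the submitters' processing notes are kallisto, edgeR and GRCh38, with no role given, and GRCh38 is the human genome whereas the gene identifiers are mouse ones. The counting tool and strand are not given in the sources used here. GENCODE M21 (GRCm38) matched 23479 identifiers and left 86 unmatched, and 2443 genes were at 0 throughout. Amplified reads are not independent molecules.

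Groups were compared with edgeR 4.0.16 (quasi-likelihood F-test, TMM factors, filterByExpr filter, R 4.3.3), with Benjamini-Hochberg adjustment over 12439 genes at a threshold of 0.05, called higher or lower where passed. SEs come from the F statistic, and SDs are between libraries. A positive log2 fold change means more RNA in Hopx-CreER cells. Log2 CPM used a prior count of 2. Motifs were counted in the longest coding transcript. The procedure was tested on simulated data.

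The members and the 9 pathway and 12 marker lists were chosen with earlier results of these data known, and list counts are therefore no independent support. Named genes are the members, the 4 with smallest p per list at 1 CPM or more in a group, paralogs with counts, and the 2 nearest patterns per member. Some others, such as Numb, Notch1 and Ccl25, are named outside this rule. Tgfbr1, Dis3 and Exosc1 are within the rule and were not called. The 16 alternatives were DESeq2 1.42.0, limma-voom (limma 3.58.1), scaling by RLE factors, by upper quartile factors or by library totals alone, no count filter, at least 1 CPM in 3 libraries, offsets for GC content (splines with 5 degrees of freedom), the Lgr5-CreER columns of the same number merged, that merger without Hopx-CreER library 3, and each library left out.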

Additional observations from a re-analysis of the deposited data

How the results depend on the processing

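The number of genes called was 1586, of members 1 and of pathway genes 22. With the Lgr5-CreER columns of the same number merged, these were 790, 0 and 13, with 0 members called higher. With Hopx-CreER library 3 also left out, an alternative chosen after seeing the data, 0 members were called and 0 higher. Leaving out 1 library at a time gave 723 to 1868 genes, 0 to 2 members (0 to 1 higher, 0 to 1 lower), 12 to 27 pathway genes and a log2 fold change of Msi2 from -0.035 to 0.618 and of Numb from -0.108 to 0.319. That of Numb was -0.001 with library totals alone. Fewer libraries leave fewer degrees of freedom, and otherwise the cause was not tested. Members called numbered 3 (2 lower) with library totals alone, 2 (1 lower) without a count filter and 4 (3 lower) with GC offsets. DESeq2 called 34 pathway genes. Calls over all genes split into 1176 higher and 410 lower, into 938 and 729 with library totals alone, and into 1044 and 1038 with GC offsets. No paired analysis was possible because the columns carry no replicate numbers that match the labels. The low counts of Msi1 and Msi2, 13 to 57 per library, limit what can be detected for them.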
